A study of Canis lupus familiaris with 30 samples.

Results

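The genes described are the NF-kappaB subunits and their closest regulators in canine lymphoma (cL), read as FPKM in all 30 libraries of 15 dogs. The list held 8 genes: the subunits RELA, RELB, REL, NFKB1 and NFKB2, the inhibitors NFKBIA and TNFAIP3, and the kinase IKBKB. A gene was taken when the study's supplementary gene tables, held here only in shortened form, pair its symbol with a gene ID. This gave 6 of the 8 genes, out of 32704 gene IDs in the matrix, of which 5086 have a symbol in the rows held. REL and NFKB1 were not analysed here. The genes were RELA (ENSCAFG00000013334), RELB (ENSCAFG00000004597), NFKB2 (ENSCAFG00000010155), NFKBIA (ENSCAFG00000013418), TNFAIP3 (ENSCAFG00000000267) and IKBKB (ENSCAFG00000005526), all in the CanFam3.1 annotation.

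NF-kappaB is a family of dimeric transcription factors that lymphocytes keep ready in the cytoplasm. In the classical pathway, receptors for antigen, TNF or microbial products switch on the kinase IKBKB, which marks the inhibitor NFKBIA for destruction, and RELA dimers then enter the nucleus. In the alternative pathway, CD40 and lymphotoxin receptors lead to processing of the NFKB2 precursor, which pairs with RELB. NFKBIA and TNFAIP3 are themselves targets of NF-kappaB and act as its brakes, and loss of TNFAIP3 and constant NF-kappaB activity are known from human B-cell lymphomas. Much of the control acts on proteins, which RNA levels do not show.

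Fine needle aspirates of enlarged lymph nodes were taken from each dog 6 weeks into CHOP (six-week) and before treatment (initial), with 1 library per dog and timepoint. CHOP is a chemotherapy of cyclophosphamide, doxorubicin, vincristine and prednisone. A single earlier injection of prednisone was allowed, and the series holds no untreated or healthy dogs. The immunophenotype labels give 3 dogs with T-cell lymphoma (028, 036 and 038), 7 with B-cell lymphoma (003, 027, 029, 030, 033, 034 and 037) and 5 of Unknown immunophenotype (024, 025, 026, 031_032 and 035). An aspirate holds tumor cells with other cells of the node, so that fewer cells of a type and less RNA per cell cannot be told apart.

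Some libraries stood apart or did not match their labels. Total counts were 4318394 to 43413353 per library, and the shallowest was the six-week library of dog 036, with 26 counts for RELA. The six-week library of dog 033 had an FPKM sum of 2253173, against 769269 to 1540381 in the other 29 libraries, with 46.9% of it in 10 genes. Marker scores, the mean log2(FPKM+1) of a marker list, rested on 2 of 7 B-cell markers (PAX5 and CD22) and 6 of 10 T-cell markers with an ID in the rows held. Dog 038 is labelled T-cell, yet its initial B-cell score of 6.09 lay among the 4.89 to 6.64 of the B-cell dogs, and its T-cell score was 2.56. Dog 029 is labelled B-cell and scored 5.88 on T-cell and 4.89 on B-cell markers. Dog 036, labelled T-cell, scored 4.25 on B-cell markers at 6 weeks and 0.73 at the initial timepoint. The main results that rest on these dogs are given with and without them.

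The inhibitor NFKBIA was the most abundant of the 6 genes in 30 of 30 libraries. Its FPKM averaged 85.9 ± 37.2 at 6 weeks and 66.4 ± 21.6 at the initial timepoint (SD, n = 15 dogs each). FPKM scales reads by transcript length and depth, so that levels can be compared between genes. The initial mean of NFKBIA was at the 90.2 percentile of the 13565 genes with a mean initial FPKM above 1.

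The 3 measured subunits were present at moderate levels in every library. RELA, the main activating subunit of the classical pathway, had 3.31 to 17.9 FPKM (median 10.2) at 6 weeks and 3.75 to 17.9 FPKM (median 9.07) at the initial timepoint. NFKB2, the p100 precursor of the alternative pathway, had 4.55 to 22.3 FPKM (median 10.8) at 6 weeks and 2.71 to 20.2 FPKM (median 13) at the initial timepoint. RELB, its partner, had 1.595 to 18.9 FPKM (median 7.36) at 6 weeks and 2.87 to 13.03 FPKM (median 6.83) at the initial timepoint. RELB was below RELA in 12 of 15 six-week and 15 of 15 initial libraries. RELA and NFKB2 had no fixed order, since NFKB2 was above RELA in 8 of 15 six-week and 9 of 15 initial libraries. NFKB2 varied most between dogs, with an initial SD of 0.79 on log2(FPKM+1), at the 79.9 percentile of all genes.

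The kinase IKBKB, the catalytic subunit that acts on NFKBIA, varied least, with an initial SD of 0.36 on log2(FPKM+1), at the 25.9 percentile. It had 5.42 to 23.6 FPKM (median 13) at 6 weeks and 8.33 to 20.6 FPKM (median 10.4) at the initial timepoint. TNFAIP3, the enzyme A20 that edits ubiquitin on signaling adaptors and so ends NF-kappaB signals, was the lowest of the 6 genes in 19 of 30 libraries. It had 1.88 to 20.6 FPKM (median 5.31) at 6 weeks and 1.604 to 16.9 FPKM (median 3.78) at the initial timepoint. The highest values of RELA, RELB, TNFAIP3 and IKBKB at both timepoints were those of dog 029. The order of means at the initial timepoint was NFKBIA, NFKB2 (12.4 ± 5.96), IKBKB (11.99 ± 3.73), RELA (9.61 ± 3.33), RELB (6.49 ± 2.63) and TNFAIP3 (4.68 ± 3.62 FPKM; SD, n = 15). NFKB2 and IKBKB, IKBKB and RELA, and RELB and TNFAIP3 differed by less than the SD of either gene. RELA lay above RELB in all 15 initial libraries.

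**Figure D1:**
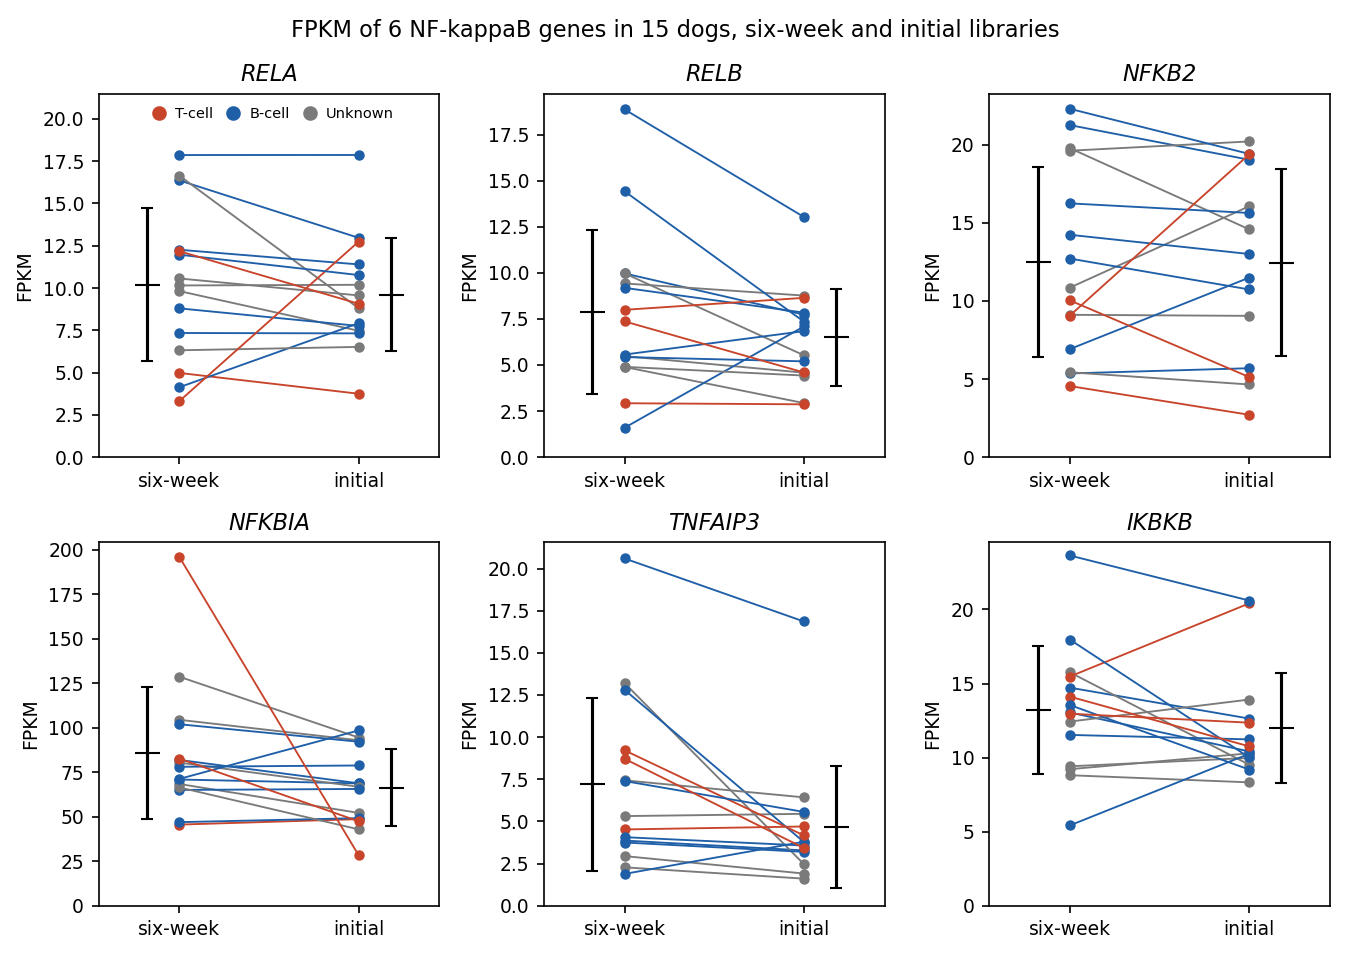
FPKM of the 6 genes in the six-week (left) and initial (right) library of each dog; each axis is FPKM from 0, each line joins the 2 libraries of a dog, colors give the immunophenotype label, and black bars give the mean and SD of 15 dogs. TNFAIP3 lines mostly run down from six-week to initial, and 1 T-cell dog has 196 FPKM of NFKBIA at 6 weeks.

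The first question was which of these genes differed between the six-week and the initial timepoint. None passed an adjusted p of 0.05, and the 2 inhibitors had the largest differences. Over all genes tested, limma with the dog as a block called 0 of 14257 genes, which is 0%, while 1823 genes reached an unadjusted p under 0.05, TNFAIP3 alone among the 6.

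TNFAIP3 averaged 7.20 ± 5.12 FPKM at 6 weeks and 4.68 ± 3.62 FPKM at the initial timepoint (SD, n = 15 dogs each). It was higher at 6 weeks in 12 of 15 dogs, and 4.57% of all genes tested were higher in at least 12 dogs. Its log2 fold change was 0.46 (SE 0.17), with p = 0.0135 and an adjusted p of 0.316 by limma, and an exact sign-flip permutation test of this gene alone gave a two-sided p of 0.0157. The dogs were uneven. Dogs 025, 034, 036 and 038 had 13.2, 12.8, 9.21 and 8.71 FPKM at 6 weeks, against 2.47, 3.78, 4.17 and 3.42 FPKM at the initial timepoint. In the pairing check described under processing, dogs 036 and 025 had the lowest correlations (-0.06 and 0.08). In the other 11 dogs the change lay between -0.73 and 0.44 on the log2 scale, with a median of 0.18. DESeq2 on the counts of the 9 dogs whose counts and FPKM share gene IDs called TNFAIP3 (log2 fold change 0.77, adjusted p = 0.0401), among 2719 calls of 16269 genes. Dogs 025, 034, 036 and 038 are all among these 9 dogs. edgeR on the same counts called 0 of 16269 genes.

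The log2 fold change of NFKBIA was 0.35 (SE 0.18, adjusted p = 0.412 by limma), and 10 of 15 dogs were higher at 6 weeks. By limma its unadjusted p was 0.0634. The exact permutation test over sign flips of this gene alone gave a two-sided p of 0.0305, which is not adjusted for other tests. One dog carried much of the mean. Dog 036 had 196 FPKM of NFKBIA at 6 weeks and 28.4 FPKM at the initial timepoint, and without this dog the log2 fold change over the other dogs was 0.18. On the count scale the same pair was 395 CPM, from 1704 reads, and 57.1 CPM, from 719 reads. In the pairing check described under processing, this pair had the lowest correlation of all dogs (-0.06).

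The subunits and the kinase showed no shared shift. RELB was higher at 6 weeks in 12 of 15 dogs, but by small amounts, 0.16 on the log2 scale (SE 0.15, adjusted p = 0.683 by limma). RELA, NFKB2 and IKBKB were each higher in 10 of 15 dogs, with log2 fold changes of 0.02 (SE 0.14), 0.03 (SE 0.12) and 0.11 (SE 0.11) and adjusted p of 0.975, 0.938 and 0.697. Single dogs departed from this. In dog 033 RELB had 1.595 FPKM at 6 weeks and 7.09 FPKM at the initial timepoint, and RELA, NFKB2, TNFAIP3 and IKBKB were lower there too, while NFKBIA had 65.0 and 65.6 FPKM. That six-week library is the one with the FPKM sum of 2253173. In dog 036 RELA had 3.31 FPKM at 6 weeks, from 26 reads, and 12.7 FPKM at the initial timepoint. RELA then made up 16% of the summed FPKM of the 3 subunits at 6 weeks and 56.7% at the initial timepoint in that dog. Without dogs 033 and 036, the log2 fold changes were 0.52 for TNFAIP3 and 0.19 for NFKBIA, and limma again called 0 genes.

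**Figure D2:**
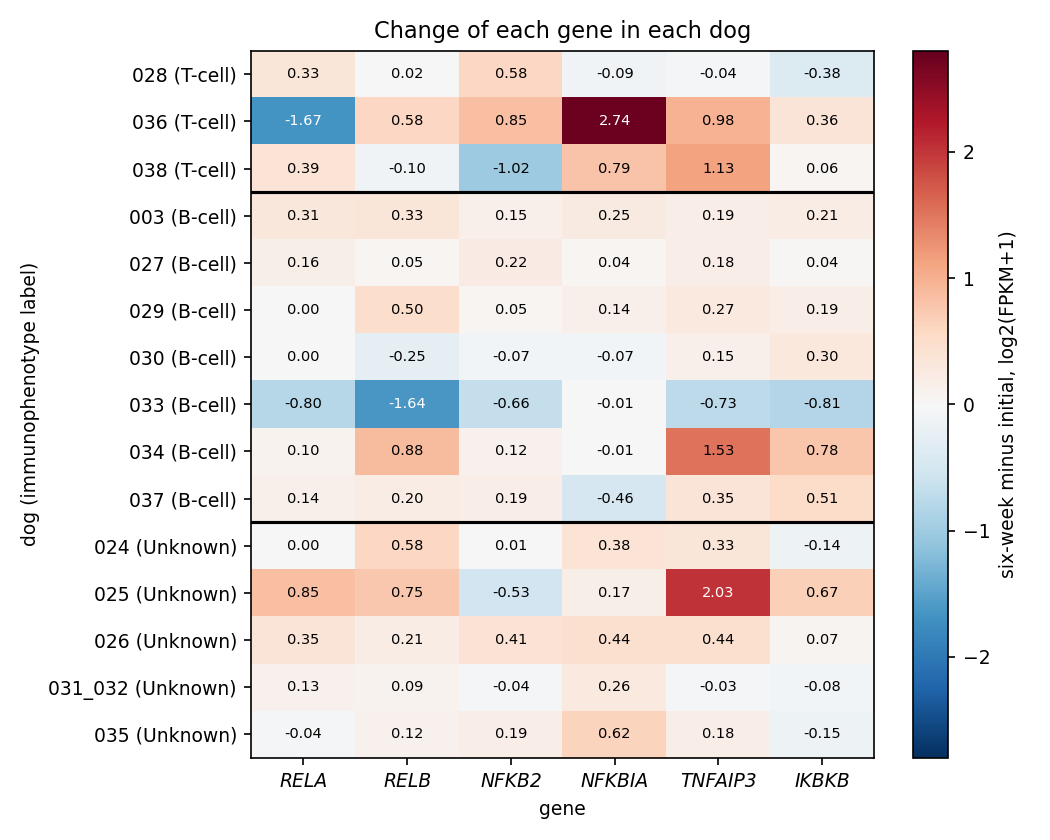
Change of each gene (columns) in each dog (rows, by immunophenotype label), six-week minus initial on log2(FPKM+1); red is higher at 6 weeks, blue lower, and the number is the value. The largest entries are NFKBIA in dog 036 (2.74) and TNFAIP3 in dog 025 (2.03), and dog 033 is lower for 5 genes with NFKBIA at -0.01.

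The change was then compared within each immunophenotype label. No gene passed in T-cell, B-cell or Unknown dogs by limma, which is 0% of 14257 genes each time, with 2862, 548 and 650 genes at an unadjusted p under 0.05. Of the 6 genes, only NFKBIA in T-cell dogs had an unadjusted p under 0.05. In the T-cell dogs, NFKBIA had 45.6, 196 and 82.6 FPKM at 6 weeks and 48.6, 28.4 and 47.4 FPKM at the initial timepoint, in dogs 028, 036 and 038. It was higher at 6 weeks in dogs 036 and 038 and slightly lower in dog 028. By limma it averaged 1.15 higher on the log2 scale at 6 weeks, with an SE of 0.33 and an adjusted p of 0.124. In the same fit the 5 myeloid markers had a median log2 fold change of 1.90 and the 6 tested stromal and endothelial markers one of 1.26, and their part in the value of NFKBIA was not tested. Without dog 028 it was 1.77, with an adjusted p of 0.00718, in a fit of 2 T-cell dogs that called 1509 of 14282 genes. Without dog 036 it was 0.35, with an adjusted p of 0.682. An exact test of 3 pairs cannot give a p below 0.25. Scaling touched this value, since the median gene of the T-cell dogs shifted by -0.09 as deposited, by -0.32 after rescaling to TPM and by 0.15 with upper-quartile scaling, and NFKBIA had log2 fold changes of 1.15, 0.86 and 1.42.

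In the B-cell dogs NFKBIA had 46.9 to 102 FPKM (median 71.2) at 6 weeks and 49.2 to 98.5 FPKM (median 68.8) at the initial timepoint. Its log2 fold change there was -0.02 (SE 0.22), with 3 dogs higher and 4 lower. The difference between the changes of T-cell and B-cell dogs was 1.16 (SE 0.40) for NFKBIA by limma, with an adjusted p of 0.230. An exact permutation of the labels over the 10 dogs gave a two-sided p of 0.0583. No gene passed this test of the difference, which is 0% of 14257 genes. There were 2187 genes at an unadjusted p under 0.05. Without dog 028 NFKBIA passed it, at 1.78 with an adjusted p of 0.0215, but that fit holds 2 T-cell dogs and called 613 of 14282 genes. Without dog 036 its value was 0.36. For the other 5 genes the difference lay between -0.31 (RELA) and 0.41 (TNFAIP3), with adjusted p of 0.658 to 0.861.

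TNFAIP3 had log2 fold changes of 0.69 (SE 0.39) in T-cell, 0.28 (SE 0.25) in B-cell and 0.59 (SE 0.30) in Unknown dogs, with adjusted p of 0.321, 0.935 and 0.951. In the Unknown dogs NFKBIA and RELB were higher at 6 weeks in 5 of 5 dogs, as were 6.33% of all genes tested. NFKBIA had 68.4, 104.5, 129, 80.4 and 66.5 FPKM at 6 weeks and 52.1, 93.0, 94.5, 66.8 and 42.9 FPKM at the initial timepoint, in dogs 024, 025, 026, 031_032 and 035. The 2 ranges overlapped, while every pair ran the same way. The log2 fold changes were 0.38 (SE 0.26) for NFKBIA and 0.35 (SE 0.26) for RELB, each with an adjusted p of 0.951 by limma and an exact permutation p of 0.0625, the smallest that 5 pairs allow. All other labels and genes had changes that differed in sign between dogs.

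T-cell and B-cell dogs were next compared at each timepoint. At the initial timepoint none of the 6 genes passed, and NFKBIA came nearest. It had 48.6, 28.4 and 47.4 FPKM in dogs 028, 036 and 038, against 49.2 to 98.5 FPKM (median 68.8) in B-cell dogs. The 2 groups did not overlap, though the highest T-cell and the lowest B-cell dog differed by less than 1 FPKM. All T-cell libraries lay below all B-cell libraries for 2.79% of the 13565 genes tested. The log2 fold change was -0.84 (SE 0.27), with p = 0.00793 and an adjusted p of 0.104 by limma, and the exact permutation p of 0.00833 is the smallest that 3 of 10 dogs allow. Without dogs 029 and 038 the difference was -0.90 on the log2 scale, with an adjusted p of 0.0564, and without dogs 033 and 036 it was -0.62, with an adjusted p of 0.568. limma called 49 of 13565 genes, which is 0.361%, and none of the 6. Of the 6, only NFKBIA had an unadjusted p under 0.05, as did 3051 of the 13565 genes tested, so that such a p was common here.

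NFKB2 depended on a dog whose markers went against its label. It had 2.71, 5.13 and 19.4 FPKM in dogs 028, 036 and 038, against 5.69 to 19.4 FPKM (median 13) in B-cell dogs. Dogs 028 and 036 were below every B-cell dog, while dog 038, with high PAX5 and CD22, stood near the top. With all dogs limma gave -0.83 on the log2 scale (SE 0.49, adjusted p = 0.320). Without dog 038 it was -1.53, with an adjusted p of 0.0362, and without dogs 029 and 038 it was -1.48, with an adjusted p of 0.0388. limma then called 2403 of 13548 and 3495 of 13333 genes, so that a call was common in these fits. With only 2 T-cell dogs left, their spread is taken from the other groups.

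RELA and RELB had log2 fold changes of -0.39 (SE 0.31) and -0.54 (SE 0.31) between T-cell and B-cell dogs at the initial timepoint, TNFAIP3 of -0.19 (SE 0.43) and IKBKB of 0.24 (SE 0.25), with adjusted p of 0.307 to 0.815. The high B-cell value of TNFAIP3 was that of dog 029, with 16.9 FPKM against 3.19 to 5.56 FPKM in the other 6 B-cell dogs. Without dogs 029 and 038 the log2 fold change of TNFAIP3 was 0.18. IKBKB had 20.4 FPKM in dog 028 and 20.6 FPKM in dog 029, against 8.33 to 13.9 FPKM in the other 13 dogs. The sign of the IKBKB difference turned under upper-quartile scaling, to -0.01.

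At 6 weeks limma called 0 of 15346 genes between T-cell and B-cell dogs, which is 0%. There were 1271 genes at an unadjusted p under 0.05, none of the 6 among them. The largest differences were in RELA (-0.70, SE 0.41, adjusted p = 0.647) and NFKB2 (-0.69, SE 0.44, adjusted p = 0.663). RELA had 4.98, 3.31 and 12.2 FPKM in T-cell dogs 028, 036 and 038, against 4.13 to 17.9 FPKM (median 11.97) in B-cell dogs. Without dogs 033 and 036 the differences were -0.54 in RELA and -1.02 in NFKB2, and without dogs 029 and 038 they were -1.03 and -0.76, none of them called. NFKBIA had 45.6, 196 and 82.6 FPKM in T-cell dogs, against 46.9 to 102 FPKM in B-cell dogs, and its log2 fold change was 0.33 (SE 0.36), or -0.25 without dogs 033 and 036. The groups overlapped for all 6 genes.

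**Figure D3:**
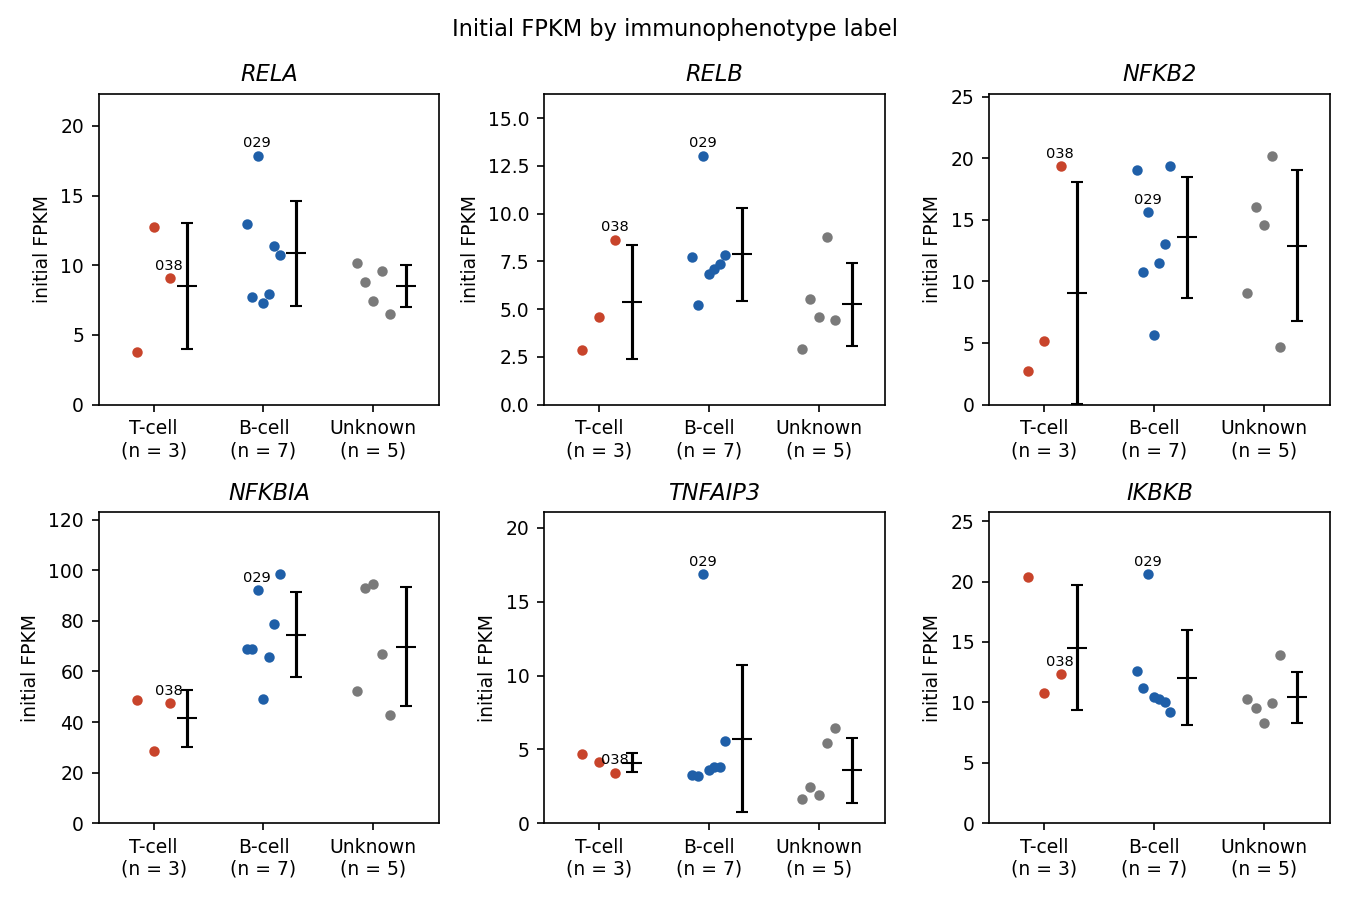
FPKM of the 6 genes in the initial libraries by immunophenotype label (T-cell n = 3, B-cell n = 7, Unknown n = 5); points are dogs, black bars are mean and SD, and dogs 029 and 038 are marked. NFKBIA is lower in all 3 T-cell dogs than in all 7 B-cell dogs, NFKB2 of dog 038 lies among the B-cell dogs, and dog 029 is the highest B-cell dog for RELA, RELB, TNFAIP3 and IKBKB.

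The higher TNFAIP3 of dogs 025, 034, 036 and 038 at 6 weeks stood beside markers of other cells. Scores of 5 of 12 myeloid markers and 7 of 8 stromal and endothelial markers with an ID were used. PECAM1 averaged 20.3 FPKM over the 30 libraries, and the other stromal and endothelial genes only 0.70 (PDGFRB) to 2.25 (CDH5) FPKM. In these 4 dogs the myeloid score changed by 2.07 to 3.22 and the stromal score by 1.298 to 1.78 on the log2 scale. In the other 11 dogs they changed by -0.76 to 0.86 and by -0.51 to 0.50. The 2 sets of dogs did not overlap in either score. How many of all genes part the same dogs was not counted, so that this cannot be called particular to these markers. TNFAIP3, for which the 4 dogs were picked, changed by 0.98 to 2.03 in them and by -0.73 to 0.44 in the 11 dogs. The proliferation score of 7 of 8 genes changed by -2.05 to -0.39 in the 4 dogs and by -0.97 to 0.37 in the 11 dogs. T-cell scores were higher at 6 weeks in dogs 025, 034 and 038 but lower in dog 036. Since the dogs were picked by TNFAIP3, its parting of them was fixed by that choice and does not set it apart from the other genes. The changes of the other NF-kappaB genes overlapped between the sets, and NFKBIA changed by -0.01 in dog 034. The dogs were not labelled in this way and no test was made between the 2 sets. As a description within the 11 dogs, the change of TNFAIP3 had a Pearson r of 0.13 and a rho of 0.03 with that of the myeloid score, and an r of 0.34 and a rho of 0.33 with that of the stromal score. The part of these cells in the change of TNFAIP3 was not tested.

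**Figure D4:**
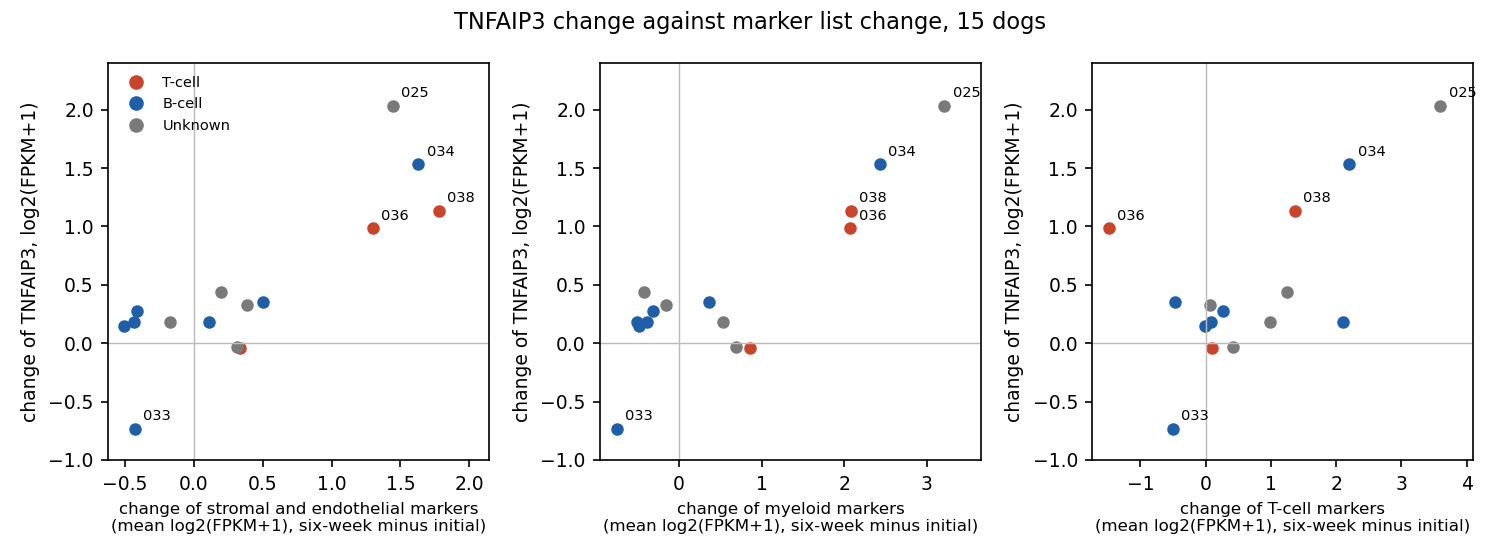
Change of TNFAIP3 (vertical axis, six-week minus initial log2(FPKM+1)) against the change of the stromal and endothelial, myeloid and T-cell marker scores (horizontal axes, mean log2(FPKM+1)); points are the 15 dogs, colored by label. Dogs 025, 034, 036 and 038, picked by their TNFAIP3 change, stand apart from the other 11 in stromal and myeloid score. How many of all genes part the same dogs was not counted. Dog 036 has a lower T-cell score at 6 weeks.

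Of the 30 relations between the changes of 6 genes and 5 marker lists, none had an adjusted p under 0.05 by both Pearson's r and Spearman's rho. By r alone there were 4, of which 2 were those of TNFAIP3 with the myeloid and stromal scores over all 15 dogs. No pooled r is given for these, since the dogs fall into the 2 separate sets above. The change of RELA correlated with that of the T-cell score (r = 0.73, permutation p = 0.00296, adjusted p = 0.0296, and rho = 0.64, permutation p = 0.0120, adjusted p = 0.163, n = 15 dogs). Without the 2 dogs farthest from the median T-cell change r was 0.74, and r was 0.51 in the 7 B-cell dogs. The change of NFKB2 correlated with that of the B-cell score (r = 0.69, permutation p = 0.00610, adjusted p = 0.0458, and rho = 0.54, permutation p = 0.0398, adjusted p = 0.298). Without the 2 farthest dogs r was 0.53. At the initial timepoint 0 of 30 relations passed by r or by rho, and the lowest p was that of NFKB2 with the B-cell score (r = 0.73, permutation p = 0.00249, adjusted p = 0.0747, and rho = 0.74, permutation p = 0.00225, adjusted p = 0.0675). All these values share a library's scaling.

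The genes were also set against each other over dogs. Of 15 pairs at the initial timepoint, 1 passed by both coefficients, and it was the alternative-pathway pair RELB and NFKB2 (r = 0.68, permutation p = 0.00483, adjusted p = 0.0362, and rho = 0.80, permutation p = 5.70e-04, adjusted p = 0.00855). Without the 2 farthest dogs r was 0.59, and in the 7 B-cell dogs alone r was 0.41 (permutation p = 0.292, adjusted p = 0.365) and rho 0.86 (permutation p = 0.0242, adjusted p = 0.121). NFKBIA and NFKB2 had a like r of 0.69 (permutation p = 0.00463, adjusted p = 0.0362) but a rho of 0.61 with an adjusted permutation p of 0.109. RELA with RELB and TNFAIP3 with IKBKB passed by r alone. After rescaling to TPM, these pairs, NFKBIA with NFKB2, and RELB with NFKB2 all passed by both coefficients. How many pairs among all genes reach such coefficients was not counted, so that no pair can be called particular to the pathway.

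Of the 15 pairs of changes, 2 passed by both coefficients over all dogs, TNFAIP3 with IKBKB and TNFAIP3 with RELB. Since dogs 025, 034, 036 and 038 stand apart in TNFAIP3, no pooled coefficient is given, and those of the other 11 dogs are a description with no test. In these 11 dogs TNFAIP3 had an r of 0.91 and a rho of 0.82 with RELB, and an r of 0.81 and a rho of 0.56 with IKBKB, the kinase that TNFAIP3 opposes upstream. Without the 2 of them farthest from the median r was 0.43 with RELB and 0.40 with IKBKB. Dog 033, whose six-week library had the outlying FPKM sum, is among those left out. It had changes of -1.64 in RELB, -0.73 in TNFAIP3 and -0.81 in IKBKB.

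As a description of likeness, the 2 genes nearest to each member over the 15 initial libraries were taken from 3801 genes with a symbol. RELA was nearest to TFE3, a transcription factor of lysosome genes (r = 0.93), and MYH9, a nonmuscle myosin (r = 0.88). In the six-week libraries of the same 15 dogs r was 0.92 and 0.84. RELB was nearest to CSF1, a growth factor of macrophages (r = 0.90, and 0.77 at 6 weeks), and ARID5A, an RNA-binding protein (r = 0.88, and 0.90 at 6 weeks). NFKB2 was nearest to MFN2, a mitochondrial fusion protein (r = 0.92, and 0.90 at 6 weeks), and KCTD18 (r = 0.89, and 0.77 at 6 weeks). TNFAIP3 was nearest to CCL19, a chemokine of lymph node stroma (r = 0.90, and 0.82 at 6 weeks), and VWA5A (r = 0.89, and 0.89 at 6 weeks). IKBKB was nearest to ZNF674 (r = 0.86, and 0.75 at 6 weeks) and to the TGF-beta receptor TGFBR2 (r = 0.85, and 0.85 at 6 weeks). NFKBIA had the neighbours with the lowest r, the ribosomal precursor FAU (r = 0.82, and 0.64 at 6 weeks) and the myeloid receptor CLEC12A (r = 0.81, and 0.18 at 6 weeks). Spearman's rho was lower for the neighbours of TNFAIP3 (0.76 for CCL19 and 0.71 for VWA5A) and of IKBKB (0.61 for ZNF674 and 0.70 for TGFBR2). Without dog 029, the highest dog for both members, r in the other 14 dogs was 0.73, 0.74, 0.78 and 0.76 for these 4 genes.

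Other genes of the pathway were read from a list of 69 genes, of which 30 have an ID in the rows held and 28 passed the FPKM filter for the timepoint comparison. None passed the test between timepoints by limma, where 24 of 28 had a positive log2 fold change, with a median of 0.25, against 48.6% of all genes and a median of -0.01. At an unadjusted p under 0.05 there were 8 of the 28, all of them target genes, beside 1823 of all 14257 genes. Symbols came from shortened copies of the study's gene tables, which are sorted by p-value on these libraries, so that the measured genes are no independent sample of the pathway.

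Of the 15 target genes with an ID, 13 were tested, and all 13 had positive log2 fold changes, with a median of 0.47. The largest value was that of CXCL10, a chemokine that draws T cells, with 24.7 ± 36.6 FPKM at 6 weeks and 10.1 ± 16.3 FPKM at the initial timepoint (SD, n = 15). It was higher at 6 weeks in 13 of 15 dogs, and its log2 fold change was 1.20 (SE 0.37, adjusted p = 0.298 by limma). CCL19 (0.75, SE 0.30, adjusted p = 0.330) and CCL5, a chemokine of T cells (0.71, SE 0.27, adjusted p = 0.316), came next. These are also products of T cells, stroma or myeloid cells, whose markers had positive changes in the same fit in 6 of 6, 6 of 6 and 5 of 5 tested genes, with medians of 0.70, 0.39 and 0.74. Of all genes 48.6% were positive. The marker IDs came from the same shortened tables, so that the measured markers are no independent sample either. The part of these cells in the changes of target genes was not tested.

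The upstream groups had few measured genes. The ligands TNF and CD40LG had log2 fold changes of 0.22 (SE 0.12) and 0.41 (SE 0.35). Of the receptors and adaptors 3 of 4 were positive, with CD27, a costimulatory receptor of lymphocytes, at 0.65 (SE 0.35). PRKCB and TBK1, kinases of the B-cell receptor and innate relays, were both negative, at -0.22 (SE 0.11) and -0.13 (SE 0.08). The alternative-pathway control gene BIRC2 was at 0.03 (SE 0.08). The 6 other inhibitors, among them the deubiquitinase CYLD, had values of -0.06 to 0.17, with a median of 0.05. None of these 15 genes passed, with adjusted p of 0.402 to 0.961.

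By label, 23 of 28 pathway genes were positive in T-cell dogs (median 0.30), against 43.1% of all genes (median -0.09). In B-cell dogs 19 of 28 were positive (median 0.10), against 50.8% of all genes (median 0.0043). In Unknown dogs 24 of 28 were positive (median 0.20), against 55.7% of all genes (median 0.03). By limma, in T-cell dogs the largest values were those of CXCL10 (1.91, SE 0.85), BCL2A1, an antiapoptotic gene of the BCL2 family (1.69, SE 0.32), and IRF4, a transcription factor of activated lymphocytes (1.59, SE 0.41), with adjusted p of 0.224, 0.107 and 0.116. In the same T-cell dogs the median log2 fold changes were 1.90 for myeloid, 1.26 for stromal and endothelial and 0.52 for B-cell markers, and the B-cell score of dog 036 was 3.52 higher at 6 weeks. The part of these cells in the pathway genes was not tested. In B-cell dogs they were CXCL10 (1.09), CCL5 (0.71) and CCL19 (0.64), each with an adjusted p of 0.935. In Unknown dogs they were CD27 (1.38), CCL5 (0.95) and TRAF1 (0.91), a signaling adaptor, each with an adjusted p of 0.951. By limma, in the difference between the changes of T-cell and B-cell dogs, BCL2A1 (1.62, SE 0.38, adjusted p = 0.159), CD40LG (-1.39, SE 0.89) and IRF4 (1.35, SE 0.50) were largest. None passed.

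Between T-cell and B-cell dogs at the initial timepoint, 10 of 27 pathway genes were positive (median -0.18), against 48.3% of all genes (median -0.02). The largest were CD40LG, the ligand that helper T cells show to B cells (2.54, SE 0.89, adjusted p = 0.119), IRF4 (-1.73, SE 0.61, adjusted p = 0.120) and CXCL10 (-1.59, SE 0.91, adjusted p = 0.306). At 6 weeks 17 of 29 were positive (median 0.09), against 42.8% of all genes (median -0.09). There the largest were CD40LG (1.15), CD27 (1.04) and SOD2, a mitochondrial superoxide dismutase (0.92), with adjusted p of 0.762, 0.782 and 0.568. No pathway gene passed at either timepoint.

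The FPKM were used as the main values because the counts could not be read under the same gene IDs in all dogs. In 18 libraries the Spearman correlation across genes of count and FPKM was 0.880 to 0.983. In the 12 libraries of dogs 024, 027, 028, 029, 030 and 035 it was 0.0868 to 0.117. NFKBIA had 1 to 10 reads under its ID in those 12 libraries at 42.9 to 102 FPKM, and IKBKB had 6 to 35 reads at 9.22 to 23.6 FPKM. RELA had 1274 to 7393 reads there, against 26 to 830 reads in the 18 libraries, at like FPKM. A count read by gene ID would thus show NFKBIA and IKBKB far lower and RELA far higher in these 6 dogs, while the FPKM ranges overlap.

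For each gene the count row that follows its FPKM was searched for in the 12 libraries. For the 6 genes 1 row matched closely, at a root mean square distance of 0.0136 to 0.0175 on the log2 scale, against 0.208 to 0.425 for the next row. The row of RELA stands under the ID of ZNF667 and that of IKBKB under the ID of DUSP6, and the other 4 stand under IDs with no symbol in the tables used. Of 13881 genes searched, 13847 were placed, and 422 of them under their own ID. In 3 dogs of the other set, taken as unknown, 13079 of 13079 placed genes had their own ID. With the matched counts NFKBIA had 654 to 3094 reads, IKBKB 558 to 2268 and RELA 93 to 414. Since these rows were chosen by nearness to the FPKM, the matched counts are no evidence independent of the FPKM. edgeR on the matched counts called none of the 6 genes in any comparison. It called 145 of 13847 genes between timepoints, where TNFAIP3 stood at 0.51 on the log2 scale (SE 0.18, adjusted p = 0.158) and NFKBIA at 0.29 (SE 0.19, adjusted p = 0.419).

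**Figure D5:**
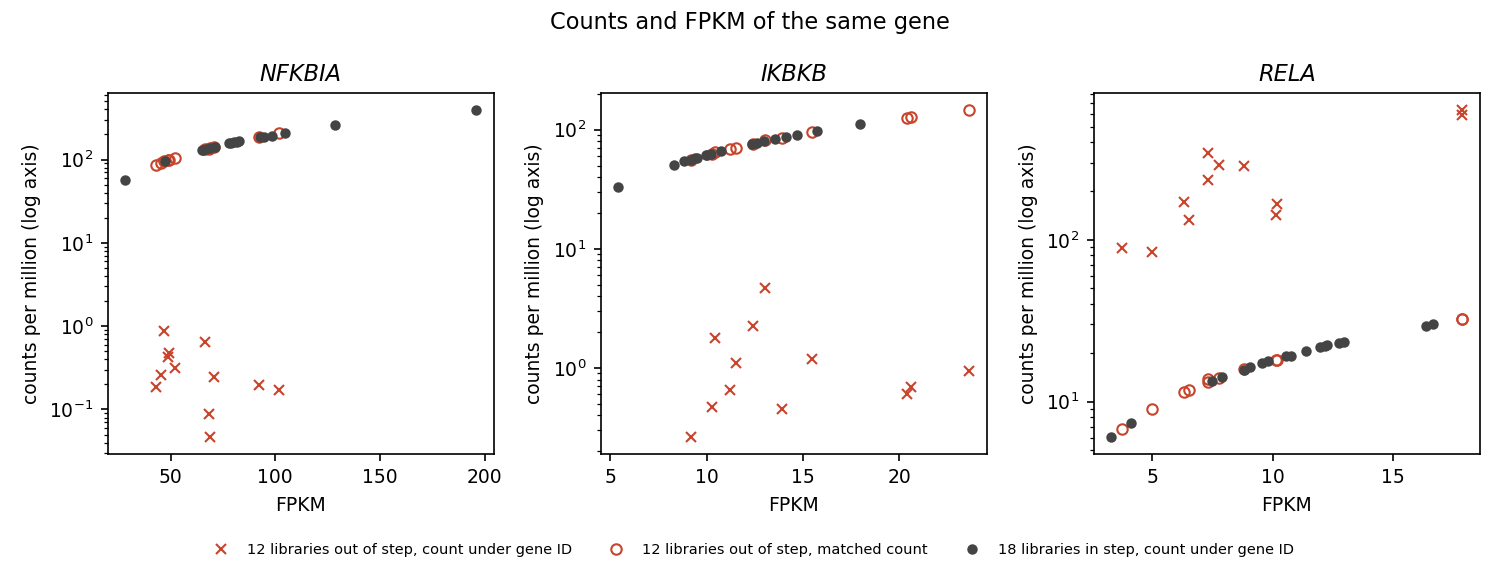
CPM, counts scaled to library size (vertical log axis) against FPKM (horizontal axis) of NFKBIA, IKBKB and RELA; black points are the 18 libraries in step, red crosses the counts under the gene's own ID in the 12 libraries out of step, and red circles the matched counts of those 12. Crosses of NFKBIA and IKBKB lie far below and those of RELA far above the black points. The circles fall on the same line as the black points because their rows were chosen by nearness to the FPKM.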

How the data were processed

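Aspirates of 15 dogs were sequenced at 2 timepoints. The submitters' processing notes name HISAT2 2.1.0, StringTie 1.3.3 and CanFam3.1. FPKM values were deposited by the authors, scaled by transcript length and depth and not log-transformed. Counts were deposited by the authors as whole reads per gene, extracted from the StringTie assembly. Groups came from the labels and pairs from dog numbers, with 031A and 032B taken as 1 dog (031_032) by elimination. As a check, deviations from label means correlated between a dog's libraries at a median of 0.521 (13 of 15 above 0.1). The lowest values were those of dogs 036 (-0.06) and 025 (0.08). Within their labels, the initial libraries of dogs 036 and 037 (0.22) did not correlate best with their own six-week library.

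The 6 genes and all lists were chosen with earlier results of these data known. limma 3.58.1 (R 4.3.3) was fitted on log2(FPKM+1), keeping genes whose mean FPKM exceeded 1, with Benjamini-Hochberg adjustment over all genes. Log2 fold changes understate the change of low genes. Pathway genes were named if they passed, otherwise the 3 largest per comparison. Samples are single aspirates. edgeR 4.0.16 and DESeq2 1.42.0 were alternatives, and the search of count rows, the edgeR test on them, the marker relations, the coefficients in 11 dogs or without dog 029 and the fit without dogs 033 and 036 were added after seeing the data. Exact and permutation tests (100000 resamples) used Python 3.11.15, NumPy 2.4.6 and SciPy 1.17.1. The scripts were tested on simulated data. The authors' own fold changes and p-values were not used.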

Additional observations from a re-analysis of the deposited data

Results flagged for a closer look

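In groups of 5 or 7 dogs, 7 of 36 sets of values held a dog far from the others. Chance gives about 1 in 20 only for independent, normally distributed sets. These sets share dogs and genes, and the 7 fall on dogs 025, 029 and 033, so that the rates cannot be compared directly. Dog 029 had the highest initial FPKM among B-cell dogs for TNFAIP3 (16.9, others 3.19 to 5.56), RELB (13.03, others 5.20 to 7.84) and IKBKB (20.6, others 9.19 to 12.6), and was also high in T-cell markers. Dog 033 had the lowest change among B-cell dogs for RELA (-0.80, others -0.00027 to 0.31) and NFKB2 (-0.66, others -0.07 to 0.22), and its six-week library is the one with the outlying FPKM sum. Dog 025 had the highest change among Unknown dogs for TNFAIP3 (2.03, others -0.03 to 0.44) and IKBKB (0.67, others -0.15 to 0.07), beside a myeloid score that changed by 3.22. The causes were not tested.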

How the results depend on the processing

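No member passed in any of the 7 comparisons under another pseudocount, filter, scaling or eBayes without trend, on matched counts with edgeR, or without dogs 033 and 036. Without the dog as a block the count of calls also stayed at 0 in the 5 comparisons that have one, and TNFAIP3 kept 0.46 with an adjusted p of 0.9997, while NFKBIA kept 0.35. Leaving out each dog in turn gave 0 to 1 member for the change in T-cell dogs, for its difference from B-cell dogs (both NFKBIA, without dog 028) and for T-cell against B-cell dogs at the initial timepoint (NFKB2, without dog 038; also 1 without dogs 029 and 038). DESeq2 in 9 dogs called 1 member, TNFAIP3. Genes called between T-cell and B-cell dogs at the initial timepoint were 49 in the deposited FPKM, 108 for a mean FPKM above 5, 28 after TPM rescaling, 16 with upper-quartile scaling, 13 with no filter, 490 in matched counts, 3495 without dogs 029 and 038, 1 without dogs 033 and 036, and 1 (dog 028 or 036) to 2403 (dog 038) leaving out each dog. Between timepoints they were 0 by limma, 3054 by limma with no filter on low FPKM, 1 by edgeR with no filter, 145 by edgeR on matched counts and 2719 by DESeq2. In the change of T-cell dogs they were 0, against 13 with a pseudocount of 0.1 and 1509 without dog 028, which gave 613 in the difference from B-cell dogs. Pairs of members that passed by both coefficients were 4 after rescaling to TPM and 0 in B-cell dogs alone at the initial timepoint (1 in the main analysis), and 1 and 0 for the changes (2 in the main analysis).

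Of 785 alternative values of single members, 83 changed sign, none of them past the threshold, and 5 became called. The values whose sign turned were at most 0.39 in size. TNFAIP3 kept its sign over time in all dogs in every alternative (0.35 to 0.77), as did NFKBIA (0.18 to 0.48) and the lower NFKBIA of T-cell dogs at the initial timepoint (-1.11 to -0.59). The causes of the turns below were not tested.

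For the six-week minus initial change of all dogs, rescaling to TPM gave -0.070 for RELA and -0.067 for NFKB2, leaving out dogs 029 and 038 gave -0.010 for RELA, edgeR in 9 dogs gave -0.093 for RELA and -0.14 for NFKB2, edgeR with no filter gave -0.25 for RELA, -0.086 for RELB, -0.29 for NFKB2 and -0.024 for IKBKB, and DESeq2 gave -0.0020 for RELA and -0.054 for NFKB2. Without each dog in turn RELA ranged from -0.042 to 0.14 and NFKB2 from -0.027 to 0.11.

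In B-cell dogs, the pseudocount of 0.1 gave -0.033 for RELB and -0.0038 for NFKB2, TPM -0.012 and -0.072, leaving out dogs 029 and 038 gave -0.071 and -0.0073, and matched counts -0.017 and -0.0054. Upper-quartile scaling gave 0.039 for RELA and 0.047 for NFKBIA, and leaving out dogs 033 and 036 gave 0.12 for RELA. Leave-one-out ranges were -0.066 to 0.12 for RELA, -0.13 to 0.29 for RELB, -0.036 to 0.11 for NFKB2 and -0.061 to 0.058 for NFKBIA. In T-cell dogs, TPM gave -0.074 for RELB, -0.12 for NFKB2 and -0.25 for IKBKB, leaving out dogs 029 and 038 gave -0.0078 for IKBKB, and leaving out dogs 033 and 036 gave 0.36 for RELA, -0.039 for RELB, -0.22 for NFKB2 and -0.16 for IKBKB. Leave-one-out ranges were -0.67 to 0.36 for RELA, -0.039 to 0.30 for RELB, -0.22 to 0.71 for NFKB2 and -0.16 to 0.21 for IKBKB. In Unknown dogs, TPM gave -0.029 for NFKB2, and matched counts gave -0.071 for NFKB2 and -0.0094 for IKBKB, with leave-one-out ranges of -0.093 to 0.14 and -0.075 to 0.13.

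For the difference in change, TPM gave -0.063 for RELB and -0.045 for NFKB2, upper-quartile scaling 0.041 for IKBKB, and leaving out dogs 033 and 036 gave 0.24 for RELA, -0.33 for RELB and -0.33 for NFKB2. Leave-one-out ranges were -0.66 to 0.37 for RELA, -0.12 to 0.30 for RELB, -0.22 to 0.71 for NFKB2 and -0.33 to 0.039 for IKBKB. Between T-cell and B-cell dogs at the initial timepoint, upper-quartile scaling gave -0.014 for IKBKB and leaving out dogs 029 and 038 gave 0.18 for TNFAIP3, with leave-one-out ranges of -0.72 to 0.046 for RELA, -0.28 to 0.077 for TNFAIP3 and -0.014 to 0.42 for IKBKB. At 6 weeks, TPM gave -0.096 for IKBKB, and leaving out dogs 033 and 036 gave -0.25 for NFKBIA, -0.15 for TNFAIP3 and -0.10 for IKBKB, with leave-one-out ranges of -0.23 to 0.81 for NFKBIA and -0.11 to 0.22 for IKBKB. Low reads limit RELA, with 26 in 1 library.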
